A study of Mus musculus with 5 samples.

Results

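The genes described here encode outer dense fibre proteins (Odf1, Odf2, Odf3, Odf4 and Odf2l) and tektins (Tekt1, Tekt2, Tekt3, Tekt4 and Tekt5). They were chosen by symbol, with the most abundant row kept where a symbol had several, and make up 10 of the 56324 rows of the deposited table. All 10 were found and all 10 passed the filter on low values, a mean normalized count of at least 10. Germ cells of C57Bl/6 male mice aged 12 weeks were separated by sedimentation at unit gravity (Sta-put), and messenger RNA was sequenced from spermatocytes, the cells in meiosis (2 samples), and from spermatids, which are haploid and build the sperm tail (3 samples). The labels give no genotype or treatment, and they do not say whether samples came from separate animals or pools, so the spread behind each p-value may be technical. A sedimented fraction is enriched and not pure, and in such bulk samples fewer cells of a type and less RNA per cell cannot be told apart.

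The sperm tail is built around an axoneme, a ring of microtubule doublets with a central pair. Tektins are filament-forming proteins that lie inside the doublets and stabilise them, in cilia as well as in flagella. Outer dense fibres are stiff, cysteine-rich cables that run beside the doublets in the mid piece and principal piece of mammalian sperm and protect the tail against shear. Both structures are assembled in spermatids, and ODF2 is also a component of the appendages of the mother centriole in many cell types.

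Of 9 members with a promoter in the RefSeq table for GRCm38.p6, 4 held the letters GTTGCC on either strand: Odf3, Tekt1, Tekt2 and Tekt4. The search ran from 250 bases before to 50 bases after a start site. These letters are only a part of the X-box bound by RFX factors, and the whole X-box was not searched. By window, 5 of 16 member windows held the letters, among them 2 overlapping windows of Tekt2, against 12.5% of all 32851 windows of that length, and by gene 14.1% of all genes had such a window. The match of Tekt4 began 8 bases after the start site, so only the other genes are shown, each as the 120 bases before a start site with the matching letters in capitals. They are shown because they carry the letters there. Odf2, Odf4, Odf2l, Tekt3 and Tekt5 were searched and did not hold the letters. Of these, Odf2, Tekt3 and Tekt5 were called higher in spermatids, as were the 4 genes with the letters. Odf1, also called higher, had no promoter among these sequences and was not searched. A share over all genes was not computed for the 120-base stretch.
Odf3 (chr7:140847796-140847915, plus strand): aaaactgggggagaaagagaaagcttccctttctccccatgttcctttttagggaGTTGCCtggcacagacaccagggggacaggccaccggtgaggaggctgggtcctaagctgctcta
Tekt1 (chr11:72361883-72362002, minus strand): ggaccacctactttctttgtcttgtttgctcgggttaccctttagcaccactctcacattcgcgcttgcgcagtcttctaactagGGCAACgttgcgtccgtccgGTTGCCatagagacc
Tekt2 (chr4:126325647-126325766, minus strand): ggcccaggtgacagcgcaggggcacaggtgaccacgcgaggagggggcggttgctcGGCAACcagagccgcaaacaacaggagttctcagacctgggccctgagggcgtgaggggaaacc
GGCAAC is the same match read on the other strand. Tekt1 had 2 matches, which began 35 and 15 bases before the start site, that of Odf3 began 65 bases before and that of Tekt2 64 bases before the start site of the window shown. The start site of this Tekt1 window lies 561 bases inside the row that was counted for the gene. That of Odf3 lies 111 bases inside its row, and that of the Tekt2 window shown lies 442 bases before its row. The cAMP response element TGACGTCA was in 0 of 16 member windows and 1.79% of all windows, its shorter form TGACGT in 2 windows of Tekt1 and 7.51% of all, and TATAAA in 0 and 13.6% of all. These matches describe letters and do not show binding.

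Of the 10 genes, 8 rose in spermatids and none fell (limma, Benjamini-Hochberg adjusted p under 0.05 over all 28370 genes tested). At an unadjusted p under 0.05 the number lower was also 0, and edgeR and DESeq2 on recovered reads called 0 lower. Over all these genes 40.6% were called higher in spermatids and 36.5% lower. The median log2 fold change of the 10 was 1.57, against 0.07 over all genes tested. The range was wide: as deposited, Odf3 and Odf1 were more than 32-fold higher, a size reached by 9.58% of all tested genes, while Odf4 and Odf2l did not pass the test. Under equal library totals Odf1 was just below 32-fold, at 4.96 on the log2 scale, and Odf3 was at 5.79. Fold changes here are on a log2(normalized count + 1) scale and use the authors' library scaling. With every library rescaled to the same total, which moved the median of all genes to -0.57, 8 members were called higher and 2 lower, against 30.5% and 49.4% of all genes tested. After quantile normalization, with a median of -0.39, the split was also 8 and 2, against 33.8% and 46.5% of all genes. For 9 of the 10 genes the spermatid values lay entirely on one side of the spermatocyte values, as they did for 85.8% of all genes tested.

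**Figure D1:**
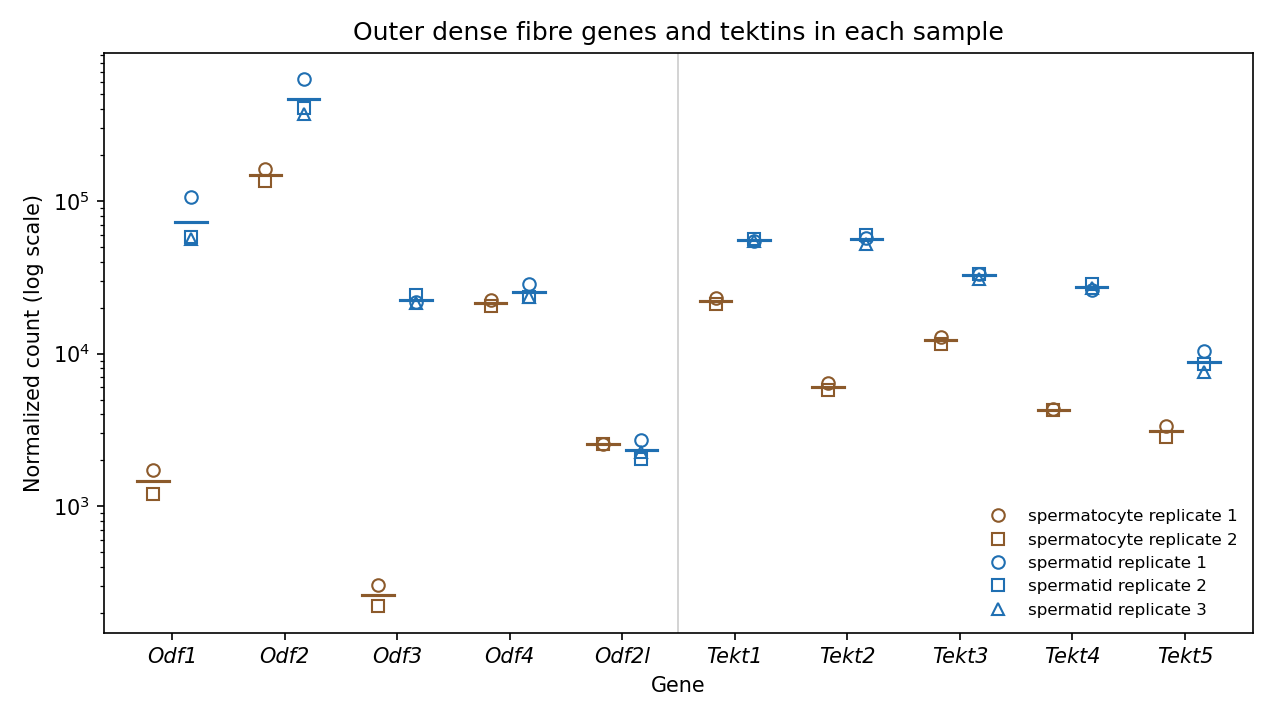
Normalized counts of the 10 genes (log axis) in each sample, with circles, squares and triangles for replicates 1, 2 and 3, brown for spermatocytes, blue for spermatids and a bar at the group mean. The groups are far apart for Odf1 and Odf3, close for Odf4 and overlapping for Odf2l.

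Odf1 encodes a main structural protein of the outer dense fibres, related to small heat shock proteins, and is needed for a firm attachment of the sperm head to the tail. Its row lies on chromosome 15 from 38219200 to 38226735 (mm10) and overlaps no other row. Normalized counts of Odf1 were 1729 and 1198 in spermatocyte replicates 1 and 2, and 106105, 57688 and 56093 in spermatid replicates 1, 2 and 3. Every spermatid sample was far above every spermatocyte sample, and spermatid replicate 1 stood above the other two. The log2 fold change was 5.60 ± 0.30 (SE), limma adjusted p = 6.2e-06.

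Odf3, a gene whose product carries proline-rich repeats and lies along the sperm tail, had the largest change of the 10. Its row lies on chromosome 7 from 140847805 to 140851014. Odf3 was at 305 and 221 in spermatocytes and at 21881, 24311 and 21538 in spermatids. The spermatid samples were close together and the groups did not overlap. Its log2 fold change was 6.44 ± 0.15 (SE), limma adjusted p = 4.2e-07.

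The spermatocyte levels of these 2 genes were a small part of the spermatid level, 2.0% for Odf1 and 1.16% for Odf3. For 10 marker genes of spermatids, among them Prm1, Prm2, Tnp1, Tnp2 and Acrv1, that share ran from 1.27% (Spaca1) to 1.82% (Prm2). Odf1 and Odf3 were also higher in spermatocyte replicate 1 than in replicate 2, by 0.53 and 0.47 on the log2 scale, where the spermatid markers had a median of 0.46 and all genes with a read in every sample a median of 0.04. The part of spermatid RNA in the spermatocyte levels of Odf1 and Odf3 was not tested. The same share of the spermatid level was 31.6% for Odf2 and between 10.8% (Tekt2) and 39.9% (Tekt1) for the tektins.

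Odf2 encodes the other main protein of the fibres and, in other splice forms, the centriolar protein cenexin. Its row lies on chromosome 2 from 29889720 to 29931745. Odf2 was at 161198 and 135184 in spermatocytes and at 626561, 406954 and 371235 in spermatids. The gene was abundant in both cell types, and all spermatid samples were above both spermatocyte samples. The log2 fold change was 1.63 ± 0.23 (SE), limma adjusted p = 0.00055, and with equal totals it was 0.98. Odf2 made up 0.267% ± 0.0231 (SD, n = 2) of the normalized counts of a library in spermatocytes and 0.532% ± 0.102 (SD, n = 3) in spermatids. All 10 genes together made up 0.40% ± 0.028 and 0.881% ± 0.106, so most of their reads came from Odf2. The table gives 1 value per gene and does not separate splice forms. Of 3 rows with the symbol Odf2, the other two had spermatid means of 102 and 147, and 2 rows without a symbol inside the gene had spermatid means of 4713 and 15204. The strand setting of the counting is not known from the sources, so overlapping rows may share reads.

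Odf4 encodes a membrane protein of the sperm tail found in the testis, and its row lies on chromosome 11 from 68921836 to 68927081. Odf4 was at 22589 and 20412 in spermatocytes and at 28489, 23629 and 23598 in spermatids. The spermatid samples were all above the spermatocyte samples, but by little. The log2 fold change was 0.23 with a 95% interval of -0.05 to 0.50 (limma adjusted p = 0.11). It turned to -0.42 with equal totals (limma adjusted p = 0.0019) and to -0.50 with quantile normalization (0.0006), so the direction of Odf4 depended on the scaling.

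Odf2l, a relative of Odf2 whose product sits at centrioles and basal bodies, lies on chromosome 3 from 145118588 to 145153915. Odf2l was at 2539 and 2553 in spermatocytes and at 2735, 2051 and 2248 in spermatids. Spermatid replicate 1 was above the spermatocyte samples and the other two were below, so the groups overlapped. The log2 fold change was -0.13 with a 95% interval of -0.46 to 0.20 (limma adjusted p = 0.42). Odf2l was called lower without spermatid replicate 1 (-0.25, limma adjusted p = 0.042), with equal totals (-0.78, 0.00062) and with quantile normalization (-0.68, 0.0014).

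**Figure D2:**
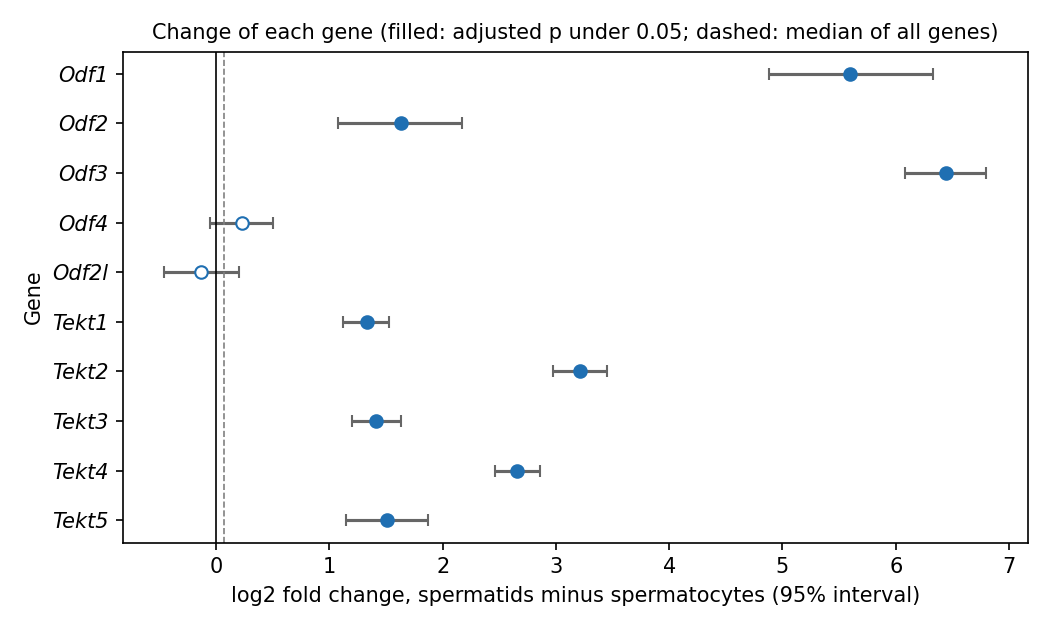
Log2 fold change of each gene, spermatids minus spermatocytes, with its 95% interval from limma; filled points passed the test and the dashed line is the median of all genes tested. Odf1 and Odf3 lie at 5.60 and 6.44, Tekt2 and Tekt4 at 3.21 and 2.66, and the intervals of Odf4 and Odf2l include 0.

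All 5 tektin genes rose in spermatids, with log2 fold changes from 1.33 to 3.21 and a median of 1.51. Tekt1, a gene of cilia and flagella with a row on chromosome 11 from 72344721 to 72362443, was at 23144 and 20975 in spermatocytes and at 54926, 55922 and 55023 in spermatids. Its spermatid values had a coefficient of variation of 0.993%, the smallest of the 10 genes. Tekt1 rose by 1.33 ± 0.08 (SE) on the log2 scale, limma adjusted p = 1.4e-05.

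Tekt2, whose loss in mice bends the flagellum and impairs motility, lies on chromosome 4 from 126322117 to 126325204. Tekt2 was at 6414 and 5753 in spermatocytes and at 56821, 60190 and 51856 in spermatids. This was the largest change among the tektins, 3.21 ± 0.10 (SE), limma adjusted p = 7.4e-07. The row of Gm12945, a predicted gene, covers the whole row of Tekt2 and had means of 1681 and 13292, so the levels of both rows are uncertain.

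Tekt4, needed for normal sperm movement, lies on chromosome 17 from 25471588 to 25476594. Tekt4 was at 4330 and 4254 in spermatocytes and at 26234, 28413 and 26857 in spermatids. The replicates of each group were close together. Tekt4 rose by 2.66 ± 0.08 (SE) on the log2 scale, limma adjusted p = 7e-07.

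Tekt3, another tektin that supports sperm motility, lies on chromosome 11 from 63061658 to 63094960. Tekt3 was at 12824 and 11619 in spermatocytes and at 33197, 33396 and 30888 in spermatids. Tekt3 rose by 1.41 ± 0.09 (SE) on the log2 scale, limma adjusted p = 1.3e-05. Tekt5, the tektin of sperm flagella in rodents and other mammals, lies on chromosome 16 from 10357952 to 10395465. Tekt5 was at 3345 and 2837 in spermatocytes and at 10383, 8553 and 7586 in spermatids, and its log2 fold change was 1.51 ± 0.15 (SE), limma adjusted p = 0.00011. In neither gene did the groups overlap.

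The 95% intervals of Tekt1, Tekt3 and Tekt5 spanned 1.12 to 1.87 together, that of Tekt4 was 2.46 to 2.86 and that of Tekt2 was 2.97 to 3.45. The proportions of the tektin transcripts per length changed accordingly. Per kilobase of exon, Tekt1 was 4.23 and 4.27 times the level of Tekt2 in the spermatocyte samples and 1.13, 1.09 and 1.24 times in the spermatid samples. The ratio of Tekt1 to Tekt4 was 6.58 and 6.07 in spermatocytes and 2.58, 2.42 and 2.52 in spermatids. The ratio of Tekt1 to Tekt5 overlapped between the groups, 7.71 and 8.24 against 5.89, 7.28 and 8.08. Such ratios within a sample do not depend on the library scaling. With 2 samples against 3 the smallest p of a two-sided exact permutation test is 0.2, and no other test of these ratios was run.

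Levels of different genes were compared as normalized counts per kilobase of exon, with all exons of the gene in GENCODE vM21 joined. In spermatocytes the highest was Odf4 at 18439 ± 1320 (SD, n = 2), followed by Odf2 at 14940 ± 1855 and Tekt1 at 13600 ± 946. On this length the values of Odf2 and Tekt1 overlapped between samples, although Odf2 was higher in 2 of 2. With the longest transcript as the length they did not overlap, at 37567 and 31504 for Odf2 and 15995 and 14496 for Tekt1. Below these genes, with all exons joined, were Tekt3, Tekt2, Tekt4, Tekt5, Odf1, Odf2l and Odf3, in that order and with no overlap between neighbours. Odf3 was the lowest at 127 ± 28.9.

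In spermatids the order was led by Odf1 at 66331 ± 25724 (SD, n = 3) and Odf2 at 47207 ± 13939, whose values overlapped between samples although Odf1 was higher in 3 of 3. Tekt1 at 34088 ± 339 and Tekt2 at 29626 ± 2206 came next, then Odf4, Tekt3, Tekt4, Odf3, Tekt5 and Odf2l, again with no overlap between neighbours. Odf1 moved from place 8 among the 10 to place 1, and from rank 2155 to rank 38 among 16998 genes with a length. Odf4 went from place 1 to place 5 and from rank 108 to rank 228. Odf2l was the lowest in spermatids at 210 ± 31.6, and Odf3 was at 10938 ± 732. The ratio of Odf2 to Odf1 per kilobase was 10.4 and 12.6 in spermatocytes and 0.658, 0.786 and 0.737 in spermatids. With the longest transcript as the length, 4291 bases in place of 9919 for Odf2, Odf2 took first place in both cell types, before Odf4 in spermatocytes and before Odf1 in spermatids.

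**Figure D3:**
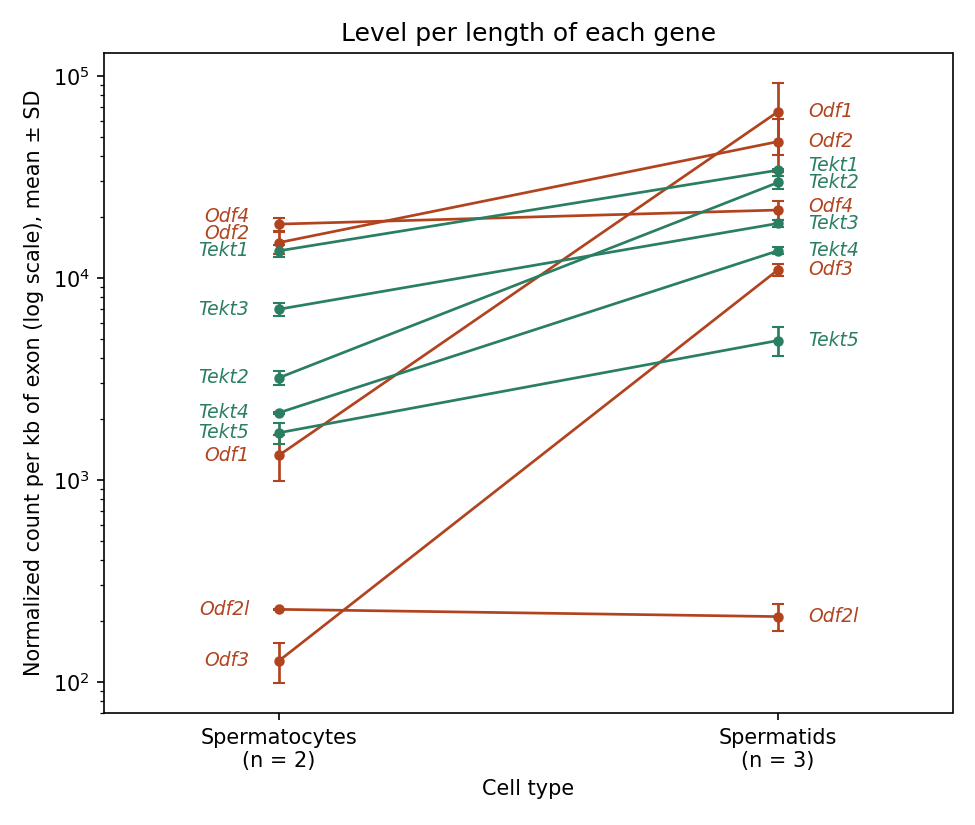
Level of each gene per kilobase of exon (log axis; mean ± SD) in spermatocytes (n = 2) and spermatids (n = 3), outer dense fibre genes in red and tektins in green. Odf1 rises from place 8 to place 1 and the lines of Odf4 and Odf2l are nearly flat.

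The spermatid samples differed among themselves in some of these genes. Against the mean of replicates 2 and 3, spermatid replicate 1 was higher by 0.90 on the log2 scale for Odf1, 0.69 for Odf2, 0.36 for Tekt5, 0.35 for Odf2l and 0.27 for Odf4. The same difference lay between -0.08 and 0.05 for Odf3, Tekt1, Tekt2, Tekt3 and Tekt4. The median over all tested genes with a read in every sample was 0.02 and that of the 10 spermatid markers was 1.16. These markers were not alike. Prm2 was at 583221, 140587 and 140411 in spermatid replicates 1, 2 and 3, while Acrv1 was at 27002, 30144 and 26452. Spaca1 was at 24594, 27604 and 22896. In normalized counts the 10 markers summed to 1696645 in replicate 1, 620431 in replicate 2 and 589754 in replicate 3. The part of this in the values of Odf1 and Odf2 was not tested. Without spermatid replicate 1, the log2 fold changes were 5.30 for Odf1 and 1.40 for Odf2, and both stayed past the threshold.

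**Figure D4:**
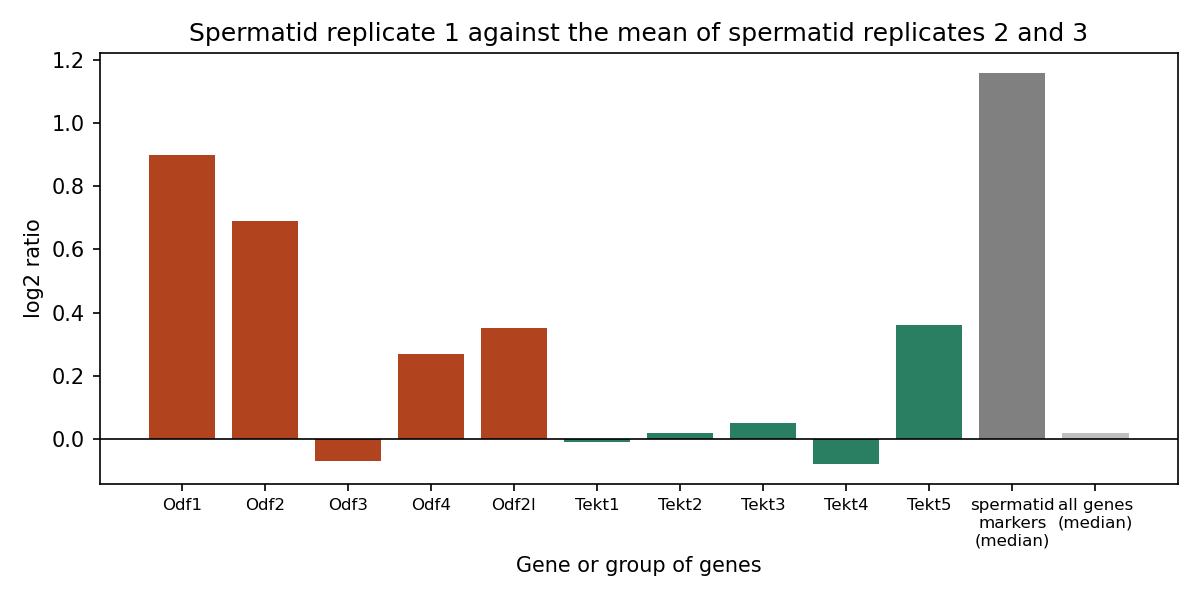
Log2 ratio of spermatid replicate 1 to the mean of spermatid replicates 2 and 3 for each gene, with the medians of 10 spermatid markers (1.16) and of all tested genes with a read in every sample (0.02). Odf1 (0.90) and Odf2 (0.69) are the highest of the 10 genes and 5 genes lie between -0.08 and 0.05.

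Other genes of these structures were taken from lists by role. Over all genes tested, 40.6% were called higher and 36.5% lower as deposited. With equal totals these shares were 30.5% and 49.4%, and after quantile normalization 33.8% and 46.5%. Of 10 tested relatives of Odf3 and proteins that bind or lie in the fibres, 9 rose and 1 fell, with a median log2 fold change of 5.03, or 6 and 1 with equal totals. Cby2 (Spert in the table), a spermatid coiled-coil gene, rose from 943 ± 165 (SD, n = 2) to 70930 ± 29343 (SD, n = 3), with spermatid replicate 1 at 104640. Tssk4, the gene of a kinase that phosphorylates ODF2, rose from 167 ± 17.7 to 13247 ± 989, a log2 fold change of 6.30. Vdac2, a pore of the outer mitochondrial membrane found in the fibres too, rose from 26632 ± 1073 to 35992 ± 1532 as deposited (0.43) and had values of -0.21 (equal totals) and -0.30 (quantile normalization). Spag5, a mitotic spindle gene whose product binds ODF1, fell from 14434 ± 535 to 11224 ± 531 (-0.36, limma adjusted p = 0.0071), a call lost in the absence of spermatocyte replicate 1 (limma adjusted p = 0.063) and of an eBayes trend (0.055). Odf3l2 was below the filter.

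Of 24 tested genes for proteins inside the doublet microtubules, where tektins also lie, 23 rose and none fell, with a median of 1.87; limma's unadjusted p, edgeR and DESeq2 also gave 0 lower. Under equal totals 17 rose and 2 fell, and under quantile normalization 17 and 3. Efhc2, a gene of a microtubule inner protein, had the largest change of the list, from 78.6 ± 22.9 to 6245 ± 450 (6.32). Mns1, which is required for flagellum assembly, was at 39475 ± 5986 and 49753 ± 4843, just past the threshold (0.34, limma adjusted p = 0.049). That call ended with edgeR (adjusted p = 0.058), DESeq2 (0.06), a pseudocount of 0.1 (limma adjusted p = 0.057), no filter (0.072) and eBayes without a trend (0.14). It also ended without spermatocyte replicate 2 (0.36), spermatid replicate 1 (0.079) or spermatid replicate 2 (0.11), and under equal totals (-0.31) and quantile normalization (-0.39) Mns1 was called lower.

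Of 11 genes of centriole appendages, the structure that holds ODF2 in other cells, 6 rose and 3 fell (median 0.58). These were 54.5% and 27.3% of the list, against 40.6% and 36.5% of all genes tested. Under equal totals 4 rose and 5 fell, against 30.5% and 49.4% of all genes. Under quantile normalization 5 rose and 4 fell, against 33.8% and 46.5%. Sclt1, a distal appendage gene, rose from 5751 ± 128 to 34301 ± 6226 (2.56). Cep128, a subdistal appendage gene, rose from 15145 ± 1005 to 22810 ± 4459 (0.58, limma adjusted p = 0.014), a call that ended without spermatocyte replicate 1 (limma adjusted p = 0.07) or 2 (0.12) and with eBayes without a trend (0.053), and whose value was -0.07 with equal totals. Ccdc68 rose from 5.84 ± 2.17 to 65.0 ± 19.2 (3.26), or by 2.21 with a pseudocount of 10; it was under the filter level in spermatocytes and entered the test through its spermatid values. Ninl, a ninein-like centrosome gene, fell from 9396 ± 203 to 1977 ± 103 (-2.25).

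The fibrous sheath is the other cytoskeletal sleeve of the tail and surrounds the fibres of the principal piece. All 11 of its tested genes rose as deposited (median 5.59), against 8 under either equal totals or quantile normalization. Akap4, its main scaffold, rose from 2697 ± 513 to 212030 ± 114006 (6.18), with spermatid replicate 1 at 343607 against 149825 and 142658. Cabyr, a calcium-binding sheath gene, rose from 471 ± 109 to 35413 ± 3323 (6.24), and Ropn1l from 89049 ± 5240 to 139624 ± 6134 (0.65), which became 0.00 under equal totals and 0.08 under quantile normalization.

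**Figure D5:**
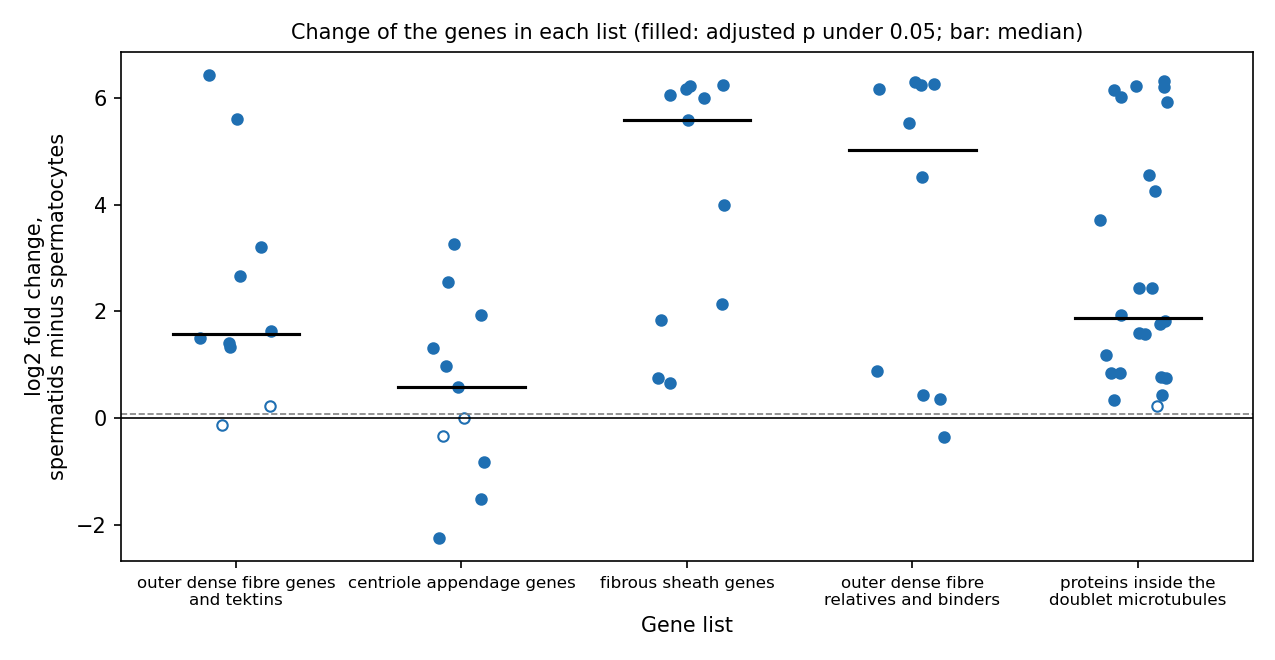
Log2 fold change, spermatids minus spermatocytes, of each tested gene in 5 lists: filled points passed the test, bars are list medians and the dashed line is the median of all genes (0.07). The 10 outer dense fibre genes and tektins have a median of 1.57, the fibrous sheath genes 5.59 and the centriole appendage genes 0.58.

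Among 11916 named genes with a mean of at least 100, those whose profile over the 5 samples was nearest to Odf1, by root mean square difference of centred log2 values, were Zc2hc1b (0.0533), Tuba4a (0.0587) and BB031773 (0.0590). Zc2hc1b had 6 reads in each spermatocyte sample and BB031773 had 11 and 12, so their likeness there rests on few reads. Tuba4a, an alpha tubulin gene, was at 250 and 186 in spermatocytes and at 15864, 9314 and 8971 in spermatids, with the same high replicate 1 as Odf1. Of the other members Odf3 was nearest to Odf1 (0.541), with 780 genes nearer. For Tekt1 the nearest were Lyrm1 (0.0199), Eya3 (0.0252) and Git1 (0.0278). The nearest member to Tekt1 was Tekt3 (0.0549), with only 25 of the 11916 genes nearer, then Tekt5 (0.174). These are descriptions over 5 samples, chosen for likeness and not tested.

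Most spermatocyte and spermatid markers followed the labels. The counts below stand beside 40.6% of all genes tested called higher in spermatids and 36.5% called lower. The 10 spermatocyte markers summed to 175329 to 192191 in spermatocytes and 33508 to 42776 in spermatids, with 8 lower in spermatids and 1 higher. Piwil1 alone was at 97665 and 88212 in spermatocytes, a large part of those sums. Msh4 went the other way, at 598 and 508 in spermatocytes and at 994, 818 and 760 in spermatids. The 10 spermatid markers summed to 13252 to 17313 and 589754 to 1696645, and all 10 were higher in spermatids. Of 13 Sertoli cell markers 13 were lower in spermatids (68767 and 91235 against 2329 to 2953), as were 6 of 6 Leydig cell markers (2355 and 2882 against 107 to 299). Of 8 myoid, vessel, macrophage and blood markers 5 were higher and 1 lower (408 to 504 against 1209 to 1996). Of 9 spermatogonia markers 3 were higher and 2 lower (5167 and 5299 against 2205 to 2796). Id4 alone was at 3751 and 3650 in spermatocytes and at 350, 320 and 342 in spermatids. It made up most of the spermatocyte sums of that list, so these sums do not describe its other genes. No marker in the table was at 0 in all samples, and the part of these cells in the results was not tested. Recovered read totals were 52784231 to 84361908 per library.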

How the data were processed

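The deposited signal is a count per gene scaled by a library size factor, made by the authors with DESeq, per the file headers and labels. The submitters' processing notes list STAR 2.4.0, FastQC, Picard, SAMtools and mm10 without roles; how reads were counted, and with which strand setting, is not given in the sources used here. In each column 100% of the values were multiples of its smallest value (within 0.001), which gave whole reads. The 95% intervals are from limma and rest on the spread between samples.

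Groups came from the cell type labels; replicates were numbered in accession order and pair no samples. The members, lists and rules were chosen with earlier results of these data known. Genes with a mean of at least 10 were tested with limma 3.58.1 (R 4.3.3) on log2(value + 1), eBayes with a trend, Benjamini-Hochberg over all genes; the step was tested on simulated data. Named genes were all members, in each list the 2 most abundant and the called gene with the largest change in each direction, and the 3 genes nearest to Odf1 and Tekt1. A gene that this rule selects is not reported here. Of 62 list genes 57 were in the table, and of 58 markers 56. Alternatives were pseudocounts of 0.1 and 10, other filters and scalings, eBayes without a trend, edgeR 4.0.16 and DESeq2 1.42.0 on recovered reads with the authors' size factors, and leaving out each replicate. Lengths came from GENCODE vM21 and promoters from RefSeq (GRCm38.p6). A search of tektin protein letters was not run because no protein table was used here.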

Additional observations from a re-analysis of the deposited data

How the results depend on the processing

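Of 150 member values under 15 alternatives, 145 kept their direction and their side of the threshold; the cause of the other 5 was not tested. With equal totals Odf4 was at -0.42 and Odf2l at -0.78, after quantile normalization they were at -0.50 and -0.68, and both were then called lower, so 2 members fell under either scaling. Leaving out 1 replicate at a time gave -0.25 to -0.04 for Odf2l and 0 to 1 members called lower, and 0 to 1 relatives and binders of the fibres called lower. That last count was 0 with eBayes without a trend. Called lower with equal totals were 5 centriole appendage genes and 2 doublet genes, and after quantile normalization 3 doublet genes. All tested genes called lower were 17263 with no filter on low values and 6029 with a mean of at least 100. Those called higher were 12999 and 7957. The number of genes tested differs between these filters, so the counts are not shares. Signs turned with equal totals and quantile normalization for Cep128 (-0.07 and -0.18), Vdac2 (-0.21 and -0.30) and Mns1 (-0.31 and -0.39). With the longest transcript as length, 8 of 10 members kept their place in the order in each cell type. Leaving out a spermatocyte replicate leaves 1 sample, which is then assumed to vary like the spermatids. No paired analysis was possible because the labels give the groups no shared replicate numbers. The lowest member mean was 263 normalized counts (Odf3 in spermatocytes), and no alternative depth was tried.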
